A study of Mus musculus with 21 samples.

Results

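CC chemokines are small secreted proteins that steer leukocytes through G protein-coupled receptors, and the genes for most of those made by myeloid cells lie side by side on a single mouse chromosome. In the injured brain, microglia and the monocytes that enter it are the usual myeloid sources of these ligands, and transcription of several of them is driven by NF-kB, a factor that inflammatory cytokines and damage signals activate. Ccl2, Ccl7 and Ccl12 are the monocyte chemoattractant ligands of CCR2, the receptor that guides monocytes into inflamed tissue. Ccl3, Ccl4 and Ccl5 are inflammatory ligands that attract macrophages and T cells, and Ccl6 and Ccl9 are rodent ligands that act on CCR1.

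These 8 ligands were the members examined, chosen by gene symbol with earlier results of these data known. All 8 were found among the 45706 gene identifiers in the deposited count table. All 8 passed the filter on low counts in a fit of 23815 genes. The table held 21 bulk RNA-seq libraries in 7 groups of 3. Male mice aged 17 to 24 weeks on a C57BL/6 background received a controlled cortical impact (CCI), a model of traumatic brain injury (TBI) in which a piston strikes the exposed cortex, or a sham operation without the impact. Injured mice were wild-type (WT) or carried the Fgg390-396A knock-in (Fgg), a change in the fibrinogen gamma chain that stops fibrin from engaging the integrin CD11b/CD18 while clotting is kept. Sham mice were wild-type, so an uninjured Fgg group was not analysed here, and every Fgg against sham comparison differs in both genotype and injury. Each library held sorted cells from the lesion area of 2 pooled brains. The sort took 40000 CD45low CD11b+ cells, labelled microglia (Mg), or 25000 CD45hi CD11b+ cells, labelled macrophages (Mp) and called infiltrating myeloid cells below. Microglia were collected from sham mice and at 1 d and 7 d after injury, and myeloid cells at 1 d only.

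Library totals ranged from 18896957 to 51875767 counts, of which 43.0% to 58.5% fell on ribosomal RNA genes. Replicates of a group had pairwise correlations of 0.912 to 0.954 on the log2 scale. Levels are given as CPM, counts scaled to library totals that were first multiplied by edgeR's normalization factors (TMM). These factors ran from 0.735 in WT myeloid replicate 2 to 1.55 in sham replicate 1. The summed level of 10 microglia markers was 10800 to 12100 CPM in sham microglia. It was 3830 to 6490 CPM in the 1 d microglia libraries of both genotypes, and 427 to 1040 CPM in myeloid cells. The homeostatic marker P2ry12 averaged 4000 CPM in sham, 395 CPM in WT and 1030 CPM in Fgg microglia at 1 d. Of the 10 microglia markers, 8 were lower and 2 higher than in sham in WT microglia at 1 d, and all 10 were lower in Fgg. Fcrls averaged 702 CPM in sham, 1070 CPM in WT and 236 CPM in Fgg microglia at 1 d. The 10 monocyte and macrophage markers summed to 6470 to 8230 CPM in myeloid cells and to 86.5 to 973 CPM in all microglia. The myeloid gate also held neutrophil transcripts, whose 11 markers summed to 2770 to 13200 CPM there. In bulk libraries of this kind, fewer cells of a type and less RNA per cell cannot be told apart. The label Fgg could not be checked from gene counts, because the knock-in replaces residues of a liver protein.

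The members formed 2 groups on chromosome 11 (GRCm38). Ccl2 (ENSMUSG00000035385, 82035571 to 82037453), Ccl7 (ENSMUSG00000035373, 82045712 to 82047525) and Ccl12 (ENSMUSG00000035352, 82101845 to 82103400) lay on the forward strand. After a gap of 1422378 bases came Ccl5 (ENSMUSG00000035042, 83525778 to 83530518), Ccl9 (ENSMUSG00000019122, 83572919 to 83578636), Ccl6 (ENSMUSG00000018927, 83587882 to 83593087) and Ccl3 (ENSMUSG00000000982, 83647844 to 83649355) on the reverse strand, and Ccl4 (ENSMUSG00000018930, 83662584 to 83664683) on the forward strand. Of the 31-base words in their transcripts, none of those of Ccl2, Ccl3, Ccl4, Ccl7 and Ccl12 occurred in another gene, and 0.54%, 1.02% and 3.98% did for Ccl5, Ccl6 and Ccl9. The library kit does not keep strand. Ccl2 overlaps the antisense gene Gm17268, which had 0 counts in every library, and Ccl6 overlaps the antisense transcript E230016K23Rik, which reached 264 counts where Ccl6 reached 23980.

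RefSeq promoter sequences (GRCm38.p6) were held for only 4 of the 8 members, Ccl12, Ccl9, Ccl6 and Ccl3, and the 150 bases before each of these starts are shown. Capitals mark every match, on either strand, to 7 motifs searched over 300 bases from 250 before the start, and positions count from 0 at the start.
Ccl12, chr11:82101695-82101844, forward strand: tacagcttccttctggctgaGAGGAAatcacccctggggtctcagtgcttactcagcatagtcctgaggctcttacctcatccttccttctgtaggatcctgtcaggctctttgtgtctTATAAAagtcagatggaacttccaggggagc
Ccl9, chr11:83578637-83578786, reverse strand: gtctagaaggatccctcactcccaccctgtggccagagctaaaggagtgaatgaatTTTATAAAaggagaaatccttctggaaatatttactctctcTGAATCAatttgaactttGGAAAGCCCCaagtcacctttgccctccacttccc
Ccl6, chr11:83593088-83593237, reverse strand: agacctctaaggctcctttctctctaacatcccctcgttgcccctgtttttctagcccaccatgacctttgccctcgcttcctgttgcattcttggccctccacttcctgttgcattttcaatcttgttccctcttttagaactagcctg
Ccl3, chr11:83649379-83649528, reverse strand: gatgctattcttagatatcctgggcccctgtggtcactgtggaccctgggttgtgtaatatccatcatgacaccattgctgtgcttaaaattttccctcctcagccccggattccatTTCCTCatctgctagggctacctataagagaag

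The TATA box letters TATAAA, held by 13.6% of 32851 promoters of the same length, stood at -31 to -26 in Ccl12, the usual distance from a start. In Ccl9 they stood at -92 to -87 and overlapped a reverse-strand match at -94 to -89, with another reverse-strand match at -224 to -219, outside the printed stretch. Ccl9 also held the AP-1 letters TGANTCA at -53 to -47, found in 7.81% of promoters, and a reverse-strand match to the loose NF-kB pattern GGGNNNNNCC at -35 to -26, found in 50.8%. The PU.1 core GAGGAA, held by 28.3%, was at -130 to -125 in Ccl12 and on the reverse strand at -33 to -28 in Ccl3. The ISRE core GAAANNGAAA (3.44%), the STAT pattern TTCCNGGAA (1.15%) and the C/EBP pattern TTGCNNAA (10.8%) had no match in these 4 windows. The promoter windows of the neighbours Ccl9 and Ccl6 shared a stretch of 74 aligned columns, 59 of them identical (79.7%), which ran from -18 to 48 in Ccl9 and from -59 to 14 in Ccl6. Among the other pairs, the longest shared stretch was 21 columns, between Ccl12 and Ccl3.

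Levels below are CPM from counts that already had transcript length divided out, so they can be compared between genes. Differences are log2 fold changes from edgeR's quasi-likelihood test across all 21 libraries, with Benjamini-Hochberg adjustment over all genes. A gene was called at an absolute log2 fold change above 1 with an adjusted p under 0.05, or under 0.1 between genotypes. Each library is a pool of brains. Whether the microglia and myeloid libraries of a genotype came from the same pools is not stated. They were compared as unpaired in the main fit. WT and Fgg microglia were set against the same 3 sham libraries, so those comparisons share their controls.

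**Figure D1:**
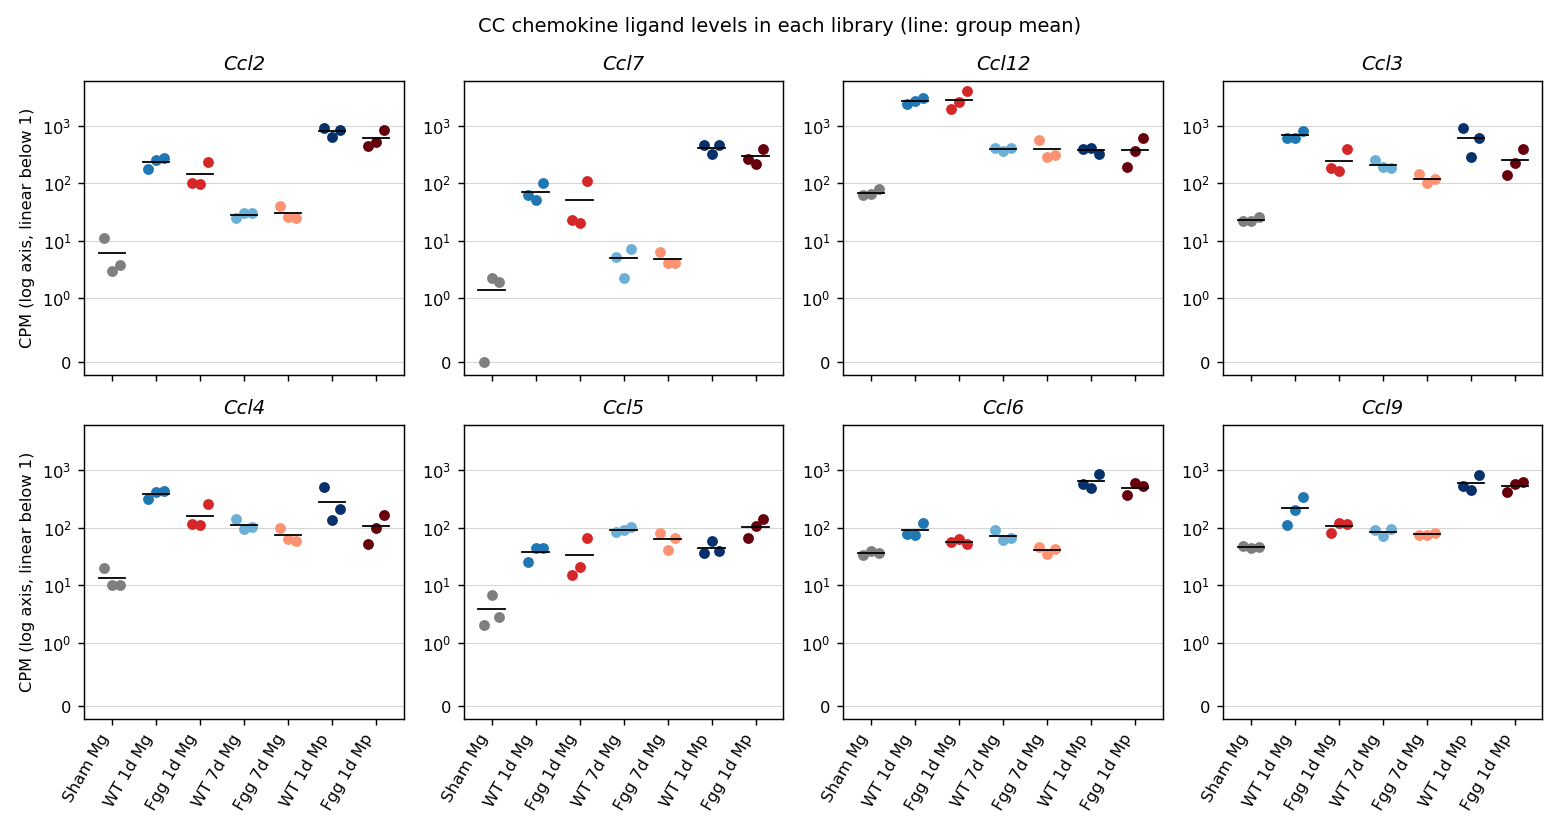
Level of each of the 8 ligands (CPM on a log axis that is linear below 1) in the 3 libraries of each of 7 groups, with points for libraries and lines for group means. Ccl12 reaches 4040 CPM in 1 d microglia, while Ccl2, Ccl7, Ccl6 and Ccl9 are highest in myeloid (Mp) cells.

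At 1 d after injury, all 8 ligands were called higher in WT microglia than in sham microglia, where 8.06% of all genes tested were called higher. The median log2 fold change of the 8 was 4.86 against 0.00 for all genes, and in all 8 the 3 WT libraries lay above the 3 sham libraries, as they did for 16.8% of all genes. In Fgg microglia 7 of the 8 were called higher, where 5.49% of all genes were, with a median of 3.50, and all 8 lay above the sham libraries, as did 15.7% of all genes. The CCR2 ligands and Ccl3, Ccl4 and Ccl5 had larger fold changes than Ccl6 and Ccl9, the ligands that already led in sham cells after Ccl12.

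Among the CCR2 ligands, Ccl12 stood at 62.0, 63.9 and 80.4 CPM in the sham libraries, at 2390, 2750 and 3010 CPM in WT microglia at 1 d, and at 1940, 2550 and 4040 CPM in Fgg microglia at 1 d. These were the highest levels of any member in any group. By mean level Ccl12 ranked 22nd of 23815 genes in WT and 18th in Fgg microglia, against 670th in sham. Its log2 fold change over sham was 5.30 (SE 0.40, edgeR adjusted p = 8.4e-08) in WT and 5.37 (SE 0.40, edgeR adjusted p = 1.1e-07) in Fgg microglia.

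Ccl2, the prototype CCR2 ligand, was at 11.4, 3.0 and 3.77 CPM in sham, at 175, 250 and 276 CPM in WT and at 101, 98.9 and 230 CPM in Fgg microglia. Sham replicate 1 was the highest of its group, and that library also had the highest summed level of 12 genes known to respond to cell dissociation, 1630 CPM against 284 and 368 CPM in the other libraries. The part of that response in the Ccl2 level was not tested. The log2 fold change of Ccl2 was 5.27 (SE 0.49, edgeR adjusted p = 5.5e-07) in WT and 4.56 (SE 0.47, edgeR adjusted p = 3.6e-06) in Fgg microglia, and without sham replicate 1 it was 6.10 and 5.40.

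Ccl7, which is transcribed next to Ccl2, had 0, 59 and 76 counts in the sham libraries, or 0, 2.24 and 1.91 CPM. A count of 0 in sham replicate 1 allowed a level of up to 0.0956 CPM, at 3 counts, for counting error only. WT microglia held 63.4, 50.8 and 100 CPM and Fgg microglia 23.2, 20.2 and 111 CPM. Every injured library exceeded every sham library, but Fgg replicate 3 was far above the other Fgg libraries. The log2 fold change of Ccl7 was 5.69 (SE 0.85, edgeR adjusted p = 7.8e-05) in WT and 5.21 (SE 0.83, edgeR adjusted p = 2.8e-04) in Fgg microglia, and the Fgg value was 3.97 without replicate 3.

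Ccl3, an early inflammatory ligand of macrophages, was at 21.9, 22.3 and 26.0 CPM in sham, 609, 621 and 824 CPM in WT and 184, 163 and 397 CPM in Fgg microglia. Ccl4, its neighbour, was at 19.4, 10.1 and 10.2 CPM in sham, 311, 416 and 428 CPM in WT and 115, 109 and 256 CPM in Fgg microglia. All Fgg libraries lay between the sham and the WT libraries for both genes. The log2 fold changes over sham were 4.87 (SE 0.46, edgeR adjusted p = 6e-07) for Ccl3 and 4.86 (SE 0.54, edgeR adjusted p = 3.6e-06) for Ccl4 in WT microglia. In Fgg microglia they were 3.41 (SE 0.43, edgeR adjusted p = 3e-05) and 3.59 (SE 0.51, edgeR adjusted p = 8.8e-05).

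Ccl5, a ligand best known for drawing T cells, was much less abundant at 1 d. It was at 2.04, 6.83 and 2.74 CPM in sham, 24.8, 44.9 and 43.3 CPM in WT and 15.0, 20.2 and 64.5 CPM in Fgg microglia. Its log2 fold change was 3.29 (SE 0.52, edgeR adjusted p = 1.5e-04) in WT and 3.11 (SE 0.52, edgeR adjusted p = 4.5e-04) in Fgg microglia. Fgg replicate 3 was again the highest of its group, and without it the Fgg value was 2.19. Without sham replicate 2, the highest sham library, the values were 3.97 in WT and 3.79 in Fgg.

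The CCR1 ligands had the highest sham levels after Ccl12 and the smallest changes. Ccl6 was at 32.9, 38.8 and 35.6 CPM in sham, 77.4, 74.6 and 118 CPM in WT and 57.0, 62.1 and 51.5 CPM in Fgg microglia. Ccl9 was at 48.4, 44.0 and 45.2 CPM in sham, 110, 199 and 336 CPM in WT and 80.2, 119 and 117 CPM in Fgg microglia. Both rose in WT microglia, Ccl6 by 1.33 (SE 0.24, edgeR adjusted p = 4.4e-04) and Ccl9 by 2.23 (SE 0.31, edgeR adjusted p = 3.4e-05) on the log2 scale.

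In Fgg microglia Ccl9 rose by 1.20 (SE 0.30, edgeR adjusted p = 0.012) and Ccl6 was not called, at 0.67 (SE 0.24, edgeR adjusted p = 0.086), although its 3 Fgg libraries lay above the 3 sham libraries. The Ccl9 call rested on single libraries. Without Fgg replicate 2 or 3 or sham replicate 2 its log2 fold change was 1.10, 1.12 or 1.17, with an edgeR adjusted p of 0.057, 0.051 or 0.051.

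**Figure D2:**
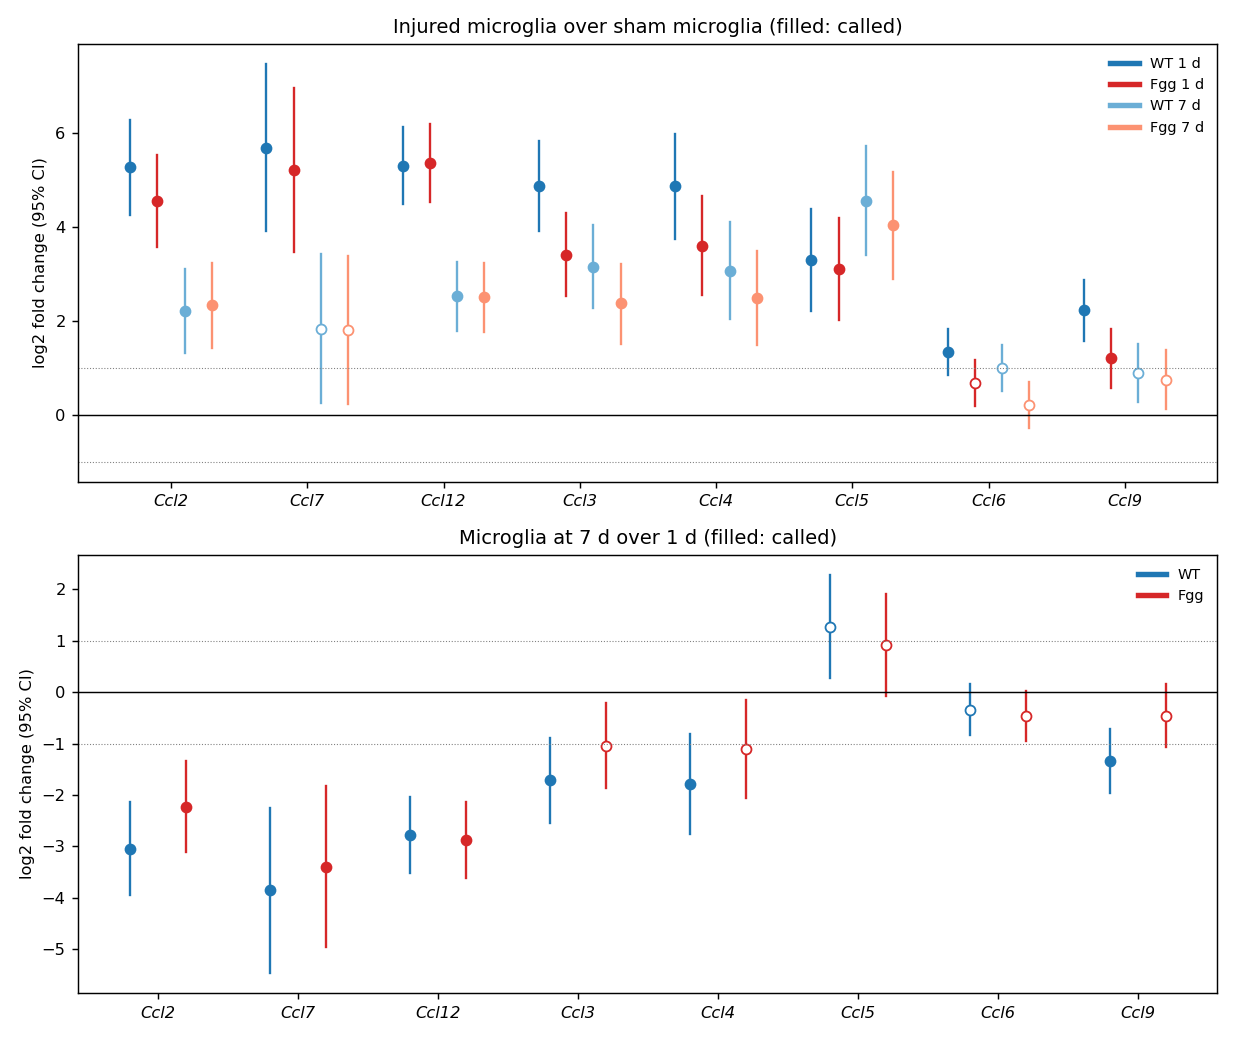
Log2 fold changes of the 8 ligands with 95% confidence intervals, in injured over sham microglia (upper panel) and in microglia at 7 d over 1 d (lower panel), with filled points for called genes. At 1 d the WT values run from 1.33 for Ccl6 to 5.69 for Ccl7, and from 1 d to 7 d only Ccl5 has values above 0, at 1.27 in WT and 0.92 in Fgg, neither of them called.

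At 7 d after injury, 5 of the 8 ligands were still called higher than in sham in WT microglia, where 1.93% of all genes were called higher, and 5 in Fgg microglia, where 0.63% were. In both genotypes these were Ccl2, Ccl12, Ccl3, Ccl4 and Ccl5. The median of the 8 was 2.37 in WT and 2.35 in Fgg microglia, against 0.00 for all genes. All 3 injured libraries lay above all sham libraries for 7 of the 8 in WT and 7 of the 8 in Fgg microglia, against 10.5% and 8.45% of all genes.

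Ccl12 was at 408, 370 and 405 CPM in WT and at 569, 286 and 310 CPM in Fgg microglia at 7 d, with log2 fold changes over sham of 2.52 (SE 0.35, edgeR adjusted p = 3.4e-04) and 2.50 (SE 0.35, edgeR adjusted p = 9.5e-04). Ccl2 had 24.6, 29.9 and 30.1 CPM in WT and 40.8, 25.7 and 25.0 CPM in Fgg microglia. Its log2 fold changes were 2.22 (SE 0.43, edgeR adjusted p = 0.0051) and 2.33 (SE 0.43, edgeR adjusted p = 0.010), rising to 3.05 and 3.17 without sham replicate 1. When only the compared groups were fitted, Ccl2 was not called, with an edgeR adjusted p of 0.055 in WT and 0.11 in Fgg microglia, and in Fgg it was also lost without sham replicate 2 (2.01, edgeR adjusted p = 0.068). Ccl7 was at 5.30, 2.24 and 7.23 CPM in WT and 6.27, 4.06 and 4.16 CPM in Fgg microglia, against 0 to 2.24 CPM in sham, so that every Fgg library lay above the sham range. Its log2 fold changes of 1.83 (95% CI 0.25 to 3.42, edgeR adjusted p = 0.32) and 1.81 (95% CI 0.23 to 3.38, edgeR adjusted p = 0.55) were not called.

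Ccl3 was at 252, 189 and 184 CPM in WT and 143, 101 and 117 CPM in Fgg microglia at 7 d, and Ccl4 at 138, 94.3 and 101 CPM and 99.6, 64.3 and 58.0 CPM. Every one of these libraries lay above the sham range. Their log2 fold changes over sham were 3.15 (SE 0.42, edgeR adjusted p = 2.4e-04) and 3.07 (SE 0.49, edgeR adjusted p = 0.0014) in WT microglia. In Fgg microglia they were 2.37 (SE 0.41, edgeR adjusted p = 0.0058) and 2.48 (SE 0.48, edgeR adjusted p = 0.014). The Fgg call of Ccl4 was lost without Fgg replicate 1 (2.21, edgeR adjusted p = 0.059), without sham replicate 2 (2.32, edgeR adjusted p = 0.093) or without sham replicate 3 (2.33, edgeR adjusted p = 0.066).

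Ccl5 was the ligand with the largest change over sham at 7 d in both genotypes. It was at 82.2, 89.6 and 101 CPM in WT and 81.8, 39.9 and 66.5 CPM in Fgg microglia, above all sham libraries. The log2 fold change was 4.56 (SE 0.55, edgeR adjusted p = 8.7e-05) in WT and 4.03 (SE 0.54, edgeR adjusted p = 8e-04) in Fgg microglia, or 5.24 and 4.71 without sham replicate 2. The 12 T and NK cell markers, the cells best known for Ccl5, summed to 2.91 to 4.35 CPM in WT and 2.00 to 3.55 CPM in Fgg microglia at 7 d, against 0.507 to 1.57 CPM at 1 d and 0.478 to 1.96 CPM in sham. At 7 d over sham 0 of the 12 were called. In WT microglia 5 were higher and 6 lower (median log2 fold change -0.29), and in Fgg 7 were higher and 3 lower (median 0.22). Most of each sum was Cd4, which averaged 1.09 CPM in sham, 2.97 CPM in WT and 2.01 CPM in Fgg microglia at 7 d. Markers at 0 in all libraries of a group at 7 d were Cd3d, Cd3g, Trac, Nkg7 and Gzma in WT and Cd3d, Cd3g, Nkg7 and Ncr1 in Fgg microglia, and the remaining 7 and 8 were detected. The part of T and NK cells in the Ccl5 level was not tested. The 10 monocyte and macrophage markers summed to 451 to 973 CPM in the 7 d libraries and 86.5 to 437 CPM in sham, and their part in the ligand levels at 7 d was not tested.

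Ccl6 and Ccl9 were not called at 7 d in either genotype. Ccl6 was at 88.8, 59.9 and 64.6 CPM in WT and 46.5, 35.1 and 42.8 CPM in Fgg microglia, with log2 fold changes of 0.99 (SE 0.24, edgeR adjusted p = 0.024) and 0.21 (SE 0.23, edgeR adjusted p = 0.95). The WT value was just under the bar on the fold change and was past it without WT replicate 2 (1.10, edgeR adjusted p = 0.032) or 3 (1.06, edgeR adjusted p = 0.048). Ccl9 was at 90.1, 70.6 and 94.8 CPM in WT and 73.5, 75.6 and 81.5 CPM in Fgg microglia, above all sham libraries, with log2 fold changes of 0.89 (edgeR adjusted p = 0.16) and 0.74 (edgeR adjusted p = 0.50).

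Between 1 d and 7 d, 6 of the 8 ligands were called lower in WT microglia, where 4.39% of all genes were, and 3 of the 8 in Fgg microglia, where 2.88% were. In each genotype 7 of the 8 had a log2 fold change below 0. The median of the 8 was -1.76 in WT and -1.08 in Fgg, against 0.00 for all genes. The CCR2 ligands fell in both genotypes. On the log2 scale Ccl7 fell by 3.86 (edgeR adjusted p = 0.0022) in WT and 3.40 (edgeR adjusted p = 0.0088) in Fgg microglia, Ccl2 fell by 3.05 (edgeR adjusted p = 1.2e-04) and 2.23 (edgeR adjusted p = 0.0027), and Ccl12 fell by 2.78 (edgeR adjusted p = 4.5e-05) and 2.87 (edgeR adjusted p = 9e-05). The Fgg call of Ccl7 was lost without Fgg 1 d replicate 3 (-2.16, edgeR adjusted p = 0.092) and without Fgg 7 d replicate 2 or 3 (-3.29 and -3.31, edgeR adjusted p = 0.055 and 0.054).

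Ccl3 fell by 1.72 (edgeR adjusted p = 0.0071), Ccl4 by 1.79 (edgeR adjusted p = 0.016) and Ccl9 by 1.34 (edgeR adjusted p = 0.0056) in WT microglia. In Fgg microglia the same genes had -1.04 (edgeR adjusted p = 0.16), -1.11 (edgeR adjusted p = 0.21) and -0.46 (edgeR adjusted p = 0.47), and the difference between genotypes in these time effects was not called for any ligand (edgeR adjusted p of 1 for all 8). The WT calls depended on single libraries for Ccl9, at -0.91 without WT 1 d replicate 3, and for Ccl4, with an edgeR adjusted p of 0.076 or 0.069 without WT 7 d replicate 2 or 3.

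Ccl5 went the other way in level. Its 7 d libraries all exceeded its 1 d libraries in WT microglia, as for 15.2% of all genes, at a log2 fold change of 1.27 (95% CI 0.27 to 2.28, edgeR adjusted p = 0.11), which was not called. DESeq2's Wald test called it (1.36, adjusted p = 0.026), and so did edgeR when only the compared groups were fitted (1.24, adjusted p = 0.013). In Fgg microglia the value was 0.92 (edgeR adjusted p = 0.35), and without Fgg 1 d replicate 3 it was 1.84 and called (edgeR adjusted p = 0.030). Ccl6 was not called between the times, at -0.34 in WT (95% CI -0.83 to 0.15) and -0.46 in Fgg (95% CI -0.95 to 0.03).

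**Figure D3:**
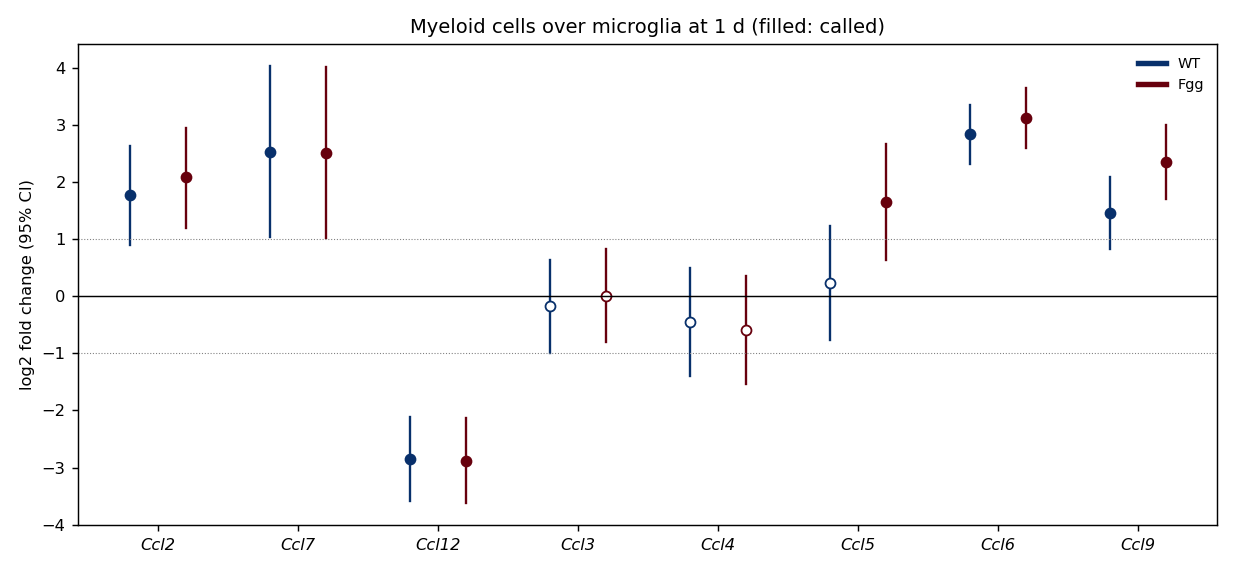
Log2 fold changes of the 8 ligands in myeloid cells over microglia at 1 d, with 95% confidence intervals and filled points for called genes. Ccl12 is the ligand below 0 and called in both genotypes (-2.85 and -2.88), and Ccl6 has the largest positive values (2.83 and 3.12).

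At 1 d the 2 sorted populations carried different ligands. In WT mice 4 of the 8 were called higher in myeloid cells than in microglia, where 5.61% of all genes were, and 1 was called lower, where 6.31% were. In Fgg mice 5 were called higher, where 6.96% of all genes were, and 1 lower, where 9.7% were. The median of all genes was -0.13 in the Fgg comparison and 0.00 in the WT comparison. The dissociation-response genes moved with the cell type. They summed to 1720 to 4650 CPM in the myeloid and 294 to 1110 CPM in the 1 d microglia libraries, and all 12 were higher in myeloid cells in both genotypes, 7 of them called in WT and 9 in Fgg mice (median log2 fold changes 1.98 and 1.94). Their part in the ligand differences between the cell types was not tested.

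The CCR2 ligands divided between the cell types. Ccl12 was at 393, 415 and 321 CPM in WT and 191, 366 and 601 CPM in Fgg myeloid cells, all below every 1 d microglia library, as were 15.7% of all genes in WT and 20% in Fgg mice. It was lower in myeloid cells by a log2 fold change of -2.85 (SE 0.35, edgeR adjusted p = 1.1e-05) in WT and -2.88 (SE 0.35, edgeR adjusted p = 8.4e-06) in Fgg mice. Its neighbours had the opposite pattern.

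Ccl2 was at 914, 639 and 833 CPM in WT and 447, 529 and 836 CPM in Fgg myeloid cells, and was higher there by 1.77 (SE 0.41, edgeR adjusted p = 0.0053) and 2.08 (SE 0.42, edgeR adjusted p = 0.0013). Ccl7 was at 459, 326 and 456 CPM in WT and 266, 217 and 395 CPM in Fgg myeloid cells, and was higher by 2.53 (SE 0.71, edgeR adjusted p = 0.019) and 2.51 (SE 0.71, edgeR adjusted p = 0.015). The Ccl7 call was lost in WT without microglia replicate 1 (2.45, edgeR adjusted p = 0.067) or 2 (2.38, edgeR adjusted p = 0.079). In Fgg it was lost without microglia replicate 1 (2.16, edgeR adjusted p = 0.075) or 2 (2.13, edgeR adjusted p = 0.071), and was 3.75 without microglia replicate 3.

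Ccl6 and Ccl9 were higher in every myeloid library than in every 1 d microglia library, as were 13.5% of all genes in WT and 12% in Fgg mice. Ccl6 was at 580, 486 and 854 CPM in WT and 362, 587 and 537 CPM in Fgg myeloid cells, and was higher than in microglia by 2.83 (SE 0.25, edgeR adjusted p = 3.6e-07) and 3.12 (SE 0.25, edgeR adjusted p = 1.1e-07). Ccl9 was at 517, 451 and 810 CPM in WT and 416, 574 and 620 CPM in Fgg myeloid cells, and was higher by 1.46 (SE 0.30, edgeR adjusted p = 0.0018) and 2.35 (SE 0.31, edgeR adjusted p = 1.9e-05).

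Ccl3 and Ccl4 were not called between the cell types. Ccl3 was at 931, 283 and 601 CPM in WT and 138, 221 and 390 CPM in Fgg myeloid cells, with log2 fold changes over microglia of -0.18 (95% CI -0.99 to 0.63) and 0.01 (95% CI -0.80 to 0.82). Ccl4 was at 505, 134 and 207 CPM in WT and 51.7, 98.6 and 168 CPM in Fgg myeloid cells, with -0.45 (95% CI -1.40 to 0.50) and -0.59 (95% CI -1.54 to 0.36). Differences within these intervals were not detectable with 3 libraries a group. WT myeloid replicate 1 was the highest of its group for both, and it also had the highest summed dissociation-response level, 4650 CPM against 2810 and 2420 CPM. Without it the Ccl4 value was -1.17 (edgeR adjusted p = 0.10).

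Ccl5 was at 35.5, 58.8 and 38.5 CPM in WT myeloid cells, within reach of its microglia level (log2 fold change 0.23, 95% CI -0.76 to 1.22), and at 64.6, 105 and 141 CPM in Fgg myeloid cells. There it was called higher than in Fgg microglia, by 1.64 (SE 0.48, edgeR adjusted p = 0.019). That call was lost without Fgg microglia replicate 1 (1.29, edgeR adjusted p = 0.094) or 2 (1.39, edgeR adjusted p = 0.089) and without Fgg myeloid replicate 3 (1.36, edgeR adjusted p = 0.072), and the value was 2.56 without Fgg microglia replicate 3.

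**Figure D4:**
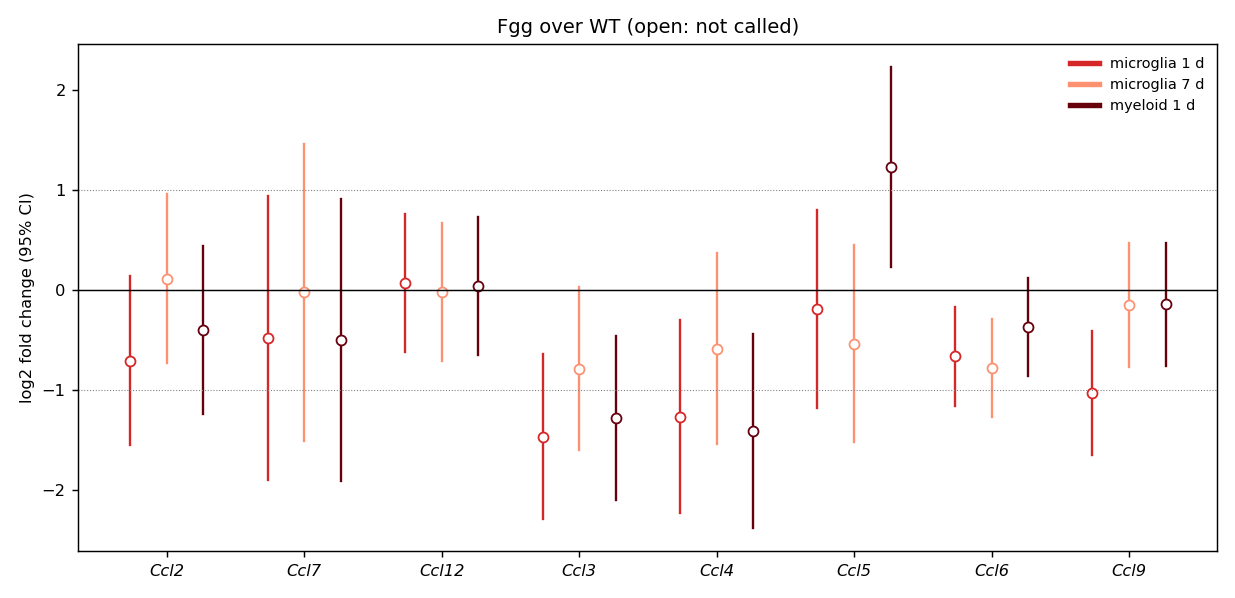
Log2 fold changes of the 8 ligands in Fgg over WT cells, with 95% confidence intervals, for microglia at 1 d and 7 d and myeloid cells at 1 d. All points are open because no ligand was called, and Ccl12 lies within 0.07 of 0 in each comparison.

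Ligand levels after injury were compared between the genotypes directly. Without an uninjured Fgg group, a genotype difference present before injury cannot be told apart from an altered response to it. By edgeR's test 0 of the 8 ligands were called between Fgg and WT in microglia at 1 d, in microglia at 7 d or in myeloid cells at 1 d, where 0.0546%, 0.0378% and 0.453% of all genes were called. At an unadjusted p under 0.05 there were 4, 1 and 3 ligands, against 5.08%, 3.34% and 11.5% of all genes. DESeq2's Wald test called 2, 0 and 2 of them, against 0.437%, 0.336% and 3.53% of all genes.

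In microglia at 1 d, Ccl3 had the largest genotype difference, with 163 to 397 CPM in Fgg against 609 to 824 CPM in WT libraries, which did not overlap. Its log2 fold change was -1.47 (95% CI -2.29 to -0.64, edgeR adjusted p = 0.66, DESeq2 adjusted p = 0.025). Ccl4 had -1.27 (95% CI -2.23 to -0.30, edgeR adjusted p = 0.89, DESeq2 adjusted p = 0.23) and its libraries did not overlap either. The CCR1 ligand Ccl9 had -1.03 (95% CI -1.65 to -0.41, edgeR adjusted p = 0.74, DESeq2 adjusted p = 0.066), with overlapping libraries. It was called by edgeR without WT replicate 1 (-1.34, edgeR adjusted p = 0.038), and stood at -0.56 without WT replicate 3.

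Ccl6 had -0.66 (95% CI -1.16 to -0.17, edgeR adjusted p = 0.89), again without overlap. In all, 3 of the 8 ligands lay lower in every Fgg library than in every WT library, against 2.99% of all genes. The CCR2 ligands overlapped between genotypes. Ccl2 had -0.71 (95% CI -1.55 to 0.14), Ccl7 had -0.48 (95% CI -1.90 to 0.94) and Ccl12 had 0.07 (95% CI -0.62 to 0.76). Ccl5 had -0.19 (95% CI -1.18 to 0.80).

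Fgg replicate 3 was the highest of the 3 Fgg libraries for Ccl2, Ccl3, Ccl4, Ccl5, Ccl7 and Ccl12 but not for Ccl6 or Ccl9. The summed level of the 12 dissociation-response genes was 576, 294 and 919 CPM in the Fgg libraries and 943, 990 and 1110 CPM in the WT libraries, and was thus highest in Fgg replicate 3 and lower in every Fgg than in every WT library, as Ccl3 and Ccl4 were. Of those 12 genes, 10 were lower in Fgg microglia and 0 were called, with a median log2 fold change of -0.62. Monocyte and macrophage markers summed to 469, 172 and 206 CPM in the Fgg and 586, 297 and 236 CPM in the WT libraries, which overlap. The part of these genes in the ligand levels was not tested. Without Fgg replicate 3 the values were -1.98 for Ccl3 (edgeR adjusted p = 0.24), -1.78 for Ccl4, -1.72 for Ccl7 and -1.10 for Ccl5 (edgeR adjusted p = 0.92 for all of the last 3).

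At 7 d the genotype differences of the 8 ligands ran from -0.79 to 0.11. Ccl3 (-0.79, 95% CI -1.60 to 0.03), Ccl6 (-0.78, 95% CI -1.27 to -0.29) and Ccl5 (-0.54, 95% CI -1.52 to 0.45) lay lower in every Fgg library than in every WT library, against 5.28% of all genes. The edgeR adjusted p was 1 for all 8 ligands. Ccl12 had -0.02 (95% CI -0.71 to 0.67), Ccl7 had -0.02 (95% CI -1.51 to 1.46) and Ccl2 had 0.11 (95% CI -0.73 to 0.96). The intervals of Ccl2 and Ccl12 lie within 1 log2 unit of 0, and that of Ccl7 does not. Monocyte and macrophage markers summed to 973, 864 and 751 CPM in the WT and 451, 633 and 594 CPM in the Fgg libraries. Most of each sum was Lyz2, which averaged 799 CPM in WT and 514 CPM in Fgg. Of the 10 markers, 4 were higher and 6 lower in Fgg and 0 were called. The part of these markers in the lower Ccl3, Ccl5 and Ccl6 levels was not tested.

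In myeloid cells at 1 d, Ccl3 (-1.28, 95% CI -2.10 to -0.46, edgeR adjusted p = 0.22, DESeq2 adjusted p = 0.038) and Ccl4 (-1.41, 95% CI -2.38 to -0.44, edgeR adjusted p = 0.25, DESeq2 adjusted p = 0.057) again had the lowest values, with overlapping libraries. Both were called by edgeR without Fgg replicate 3, at -1.76 (edgeR adjusted p = 0.047) and -1.91 (edgeR adjusted p = 0.074). Without WT replicate 1, the library with the highest dissociation-response sum, Ccl4 was at -0.68 (edgeR adjusted p = 0.59). The dissociation-response sums were 3100, 1720 and 3110 CPM in Fgg and 4650, 2810 and 2420 CPM in WT myeloid libraries, and the neutrophil marker sums 2770, 5810 and 5210 CPM in Fgg and 8450, 3570 and 13200 CPM in WT, both of which overlap. Most of the neutrophil sums was S100a8 and S100a9. Of the 11 neutrophil markers, 4 were higher and 6 lower in Fgg and 0 were called (median log2 fold change -0.03).

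Ccl5 was the ligand that lay higher in every Fgg myeloid library, at 1.23 (95% CI 0.23 to 2.23, edgeR adjusted p = 0.34), against 3.16% of all genes. The T and NK cell markers summed to 12.4, 20.9 and 25.6 CPM in Fgg and 13.7, 7.21 and 8.34 CPM in WT libraries, which overlap. Of the 12, 8 were higher and 4 lower in Fgg and 0 were called, and their part in the Ccl5 level was not tested. The remaining ligands had -0.50 (Ccl7), -0.40 (Ccl2), -0.37 (Ccl6), -0.14 (Ccl9) and 0.04 (Ccl12).

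Tests of the difference between genotype effects called 0 of the 8 ligands, both for 7 d against 1 d in microglia, where 0% of all genes were called, and for myeloid cells against microglia at 1 d, where 0.0462% were. At an unadjusted p under 0.05, which 2.74% and 8.37% of all genes reached, there was 1 ligand in the former, Ccl9 (0.88, 95% CI 0.01 to 1.75), and there were Ccl5 (1.41, 95% CI 0.01 to 2.82, edgeR adjusted p = 0.59) and Ccl9 (0.89, 95% CI 0.01 to 1.76, edgeR adjusted p = 0.59) in the latter.

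**Figure D5:**
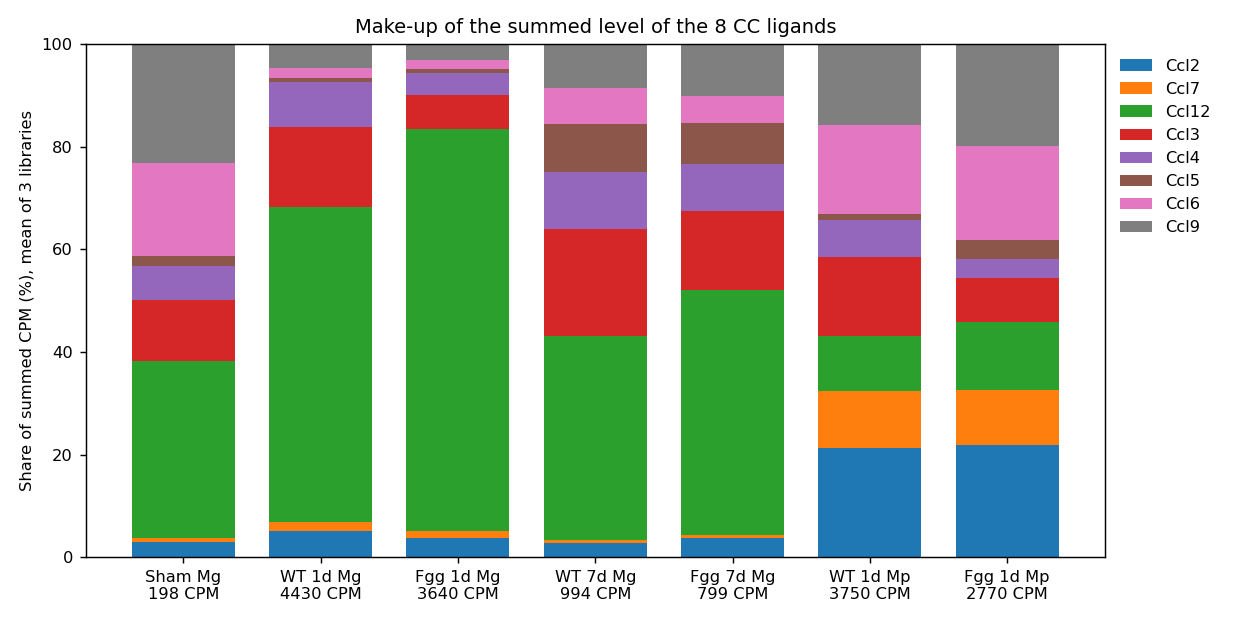
Share of each ligand in the summed CPM of the 8 ligands (%), as the mean of 3 libraries per group, with the mean sum under each bar. Ccl12 makes up 61.5% and 78.3% in WT and Fgg microglia at 1 d and 10.6% and 13.2% in myeloid cells.

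The make-up of the ligand pool differed between cell types and times. The summed level of the 8 was 198 ± 7.29 CPM (SD, n = 3) in sham microglia, 4430 ± 687 CPM in WT and 3640 ± 1440 CPM in Fgg microglia at 1 d, 994 ± 92.0 CPM and 799 ± 229 CPM at 7 d, and 3750 ± 836 CPM and 2770 ± 878 CPM in myeloid cells (SD, n = 3 each). Ccl12 took 61.5% ± 2.6 of the sum in WT microglia at 1 d and 78.3% ± 2.47 in Fgg (SD, n = 3 each), with library ranges of 58.6% to 63.5% and 76.7% to 81.2%. These ranges did not overlap, while the Ccl12 level itself did, and the shares of Ccl3 were 14.1% to 16.2% in WT and 5.18% to 7.54% in Fgg microglia.

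At 7 d Ccl5 held 9.23% ± 1.46 of the sum in WT and 7.82% ± 1.56 in Fgg microglia (SD, n = 3 each), against 0.841% and 0.821% on average at 1 d. In myeloid cells no single ligand dominated. Ccl2 held 21.4% in WT and 21.8% in Fgg, Ccl9 15.9% and 19.9%, Ccl6 17.2% and 18.3%, and Ccl7 11.1% and 10.8%. The ratio of Ccl2 to Ccl12 was 2.15 ± 0.548 in WT myeloid cells and 0.0854 ± 0.0104 in WT microglia at 1 d (SD, n = 3 each).

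Neighbouring genes did not always share a pattern. Over the 21 libraries, which share the 7 groups, Ccl3 and Ccl4 had a Pearson correlation of log2 CPM of 0.98, and 0.88 after group means were removed. Ccl6 and Ccl9 had 0.95 and 0.67. Ccl12 had 0.51 with Ccl2 and 0.02 with Ccl6 over all libraries, but 0.97 and 0.70 over the 15 microglia libraries, since the myeloid libraries set them apart. Among 9709 genes compared, the genes most like each ligand over the 21 libraries were Tnf for Ccl4 (0.926), Rpl5 for Ccl3 (0.934), Bcl2a1d for Ccl2 (0.978), Lmna for Ccl7 (0.977), Cd72 for Ccl12 (0.934), Treml2 for Ccl5 (0.887), Mmp19 for Ccl6 (0.982) and Cstb for Ccl9 (0.981). For Ccl12 the next were Mcm2 (0.931) and Lig1 (0.929), both DNA replication genes. Ribosomal protein genes came next for Ccl3, Rpl10a (0.931) and Rpl3 (0.929), and for Ccl4, Rpl10a (0.913) and Rpl5 (0.906). What these likenesses reflect was not tested.

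Of 15 CC and related receptors tested, 3 were called higher in WT and 1 in Fgg microglia at 1 d over sham, where 8.06% and 5.49% of all genes were, and 0 were called lower. Ccr1, the receptor for Ccl3, Ccl6 and Ccl9, averaged 2.61 CPM in sham, 12.4 CPM in WT and 9.12 CPM in Fgg microglia (log2 fold changes 2.24 and 1.79, edgeR adjusted p = 1e-04 and 0.0013). Ccr2, which the CCR2 ligands bind, averaged 5.38 to 11.7 CPM in the microglia groups and 352 and 344 CPM in WT and Fgg myeloid cells.

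In myeloid cells over microglia, where 5.61% (WT) and 6.96% (Fgg) of all genes were called higher, 5 of the 15 receptors were called higher in each genotype, namely Ccr1, Ccr2, Ccr3, Ccr7 and Ccrl2, and Cx3cr1, the fractalkine receptor of microglia, was called lower (-2.77 in WT and -2.46 in Fgg). The median log2 fold change of the receptors was -0.10 in WT and 0.17 in Fgg, against 0.00 and -0.13 for all genes. None of the 15 was called between genotypes, where 0.0378% to 0.453% of all genes were. At 7 d over sham, where 1.93% (WT) and 0.63% (Fgg) of all genes were called higher, only Ccrl2 was called, in WT microglia (1.80, edgeR adjusted p = 0.011).

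Among 12 other ligands tested, Ccl17 and Ccl22, the CCR4 ligands, were called higher at 1 d in microglia of both genotypes. Of all genes, 8.06% in WT and 5.49% in Fgg were called higher there. Ccl22 averaged 0.409 CPM in sham, 22.8 CPM in WT and 8.90 CPM in Fgg microglia, and Ccl17 averaged 0.546, 9.64 and 4.57 CPM. Both were most abundant in myeloid cells, at 125 and 149 CPM for Ccl22 and 153 and 180 CPM for Ccl17 in WT and Fgg. The median log2 fold change of the 12 at 1 d was 0.38 in WT and 0.44 in Fgg microglia, against 0.00 for all genes. Several of the 12 were hardly detected, such as Ccl1, Ccl19 and Xcl1, each at 0 CPM in sham and 1 d microglia. From 1 d to 7 d Ccl17 and Ccl22 were called lower in both genotypes, as were 4.39% (WT) and 2.88% (Fgg) of all genes. In myeloid cells over microglia Ccl17, Ccl22 and Ccl24 were called higher in both genotypes, as were 5.61% (WT) and 6.96% (Fgg) of all genes. Ccl11, at 0.211 CPM in Fgg microglia and 0 CPM in Fgg myeloid cells, was called lower in Fgg, as were 9.7% of all genes.

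Of 15 NF-kB subunits, inhibitors and kinases, Bcl3 and Nfkbiz were called higher in WT microglia at 1 d and Bcl3 alone in Fgg. Of all genes, 8.06% and 5.49% were called higher. The list median was -0.22 in WT and -0.17 in Fgg, against 0.00 for all genes. Bcl3 averaged 3.01 CPM in sham, 23.8 CPM in WT and 22.1 CPM in Fgg microglia. In myeloid cells over microglia 5 of the 15 were called higher in each genotype, where 5.61% (WT) and 6.96% (Fgg) of all genes were. The list medians were 0.94 and 0.96, against 0.00 and -0.13 for all genes. Nfkbia, the inhibitor that NF-kB itself induces, had log2 fold changes of 2.14 (SE 0.35, edgeR adjusted p = 2.1e-04) in WT and 2.49 (SE 0.35, edgeR adjusted p = 4.2e-05) in Fgg.

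Of 6 upstream cytokines, Tnf and Il1b were called higher at 1 d in microglia of both genotypes, as were 8.06% (WT) and 5.49% (Fgg) of all genes. Tnf averaged 2.49 CPM in sham, 54.5 CPM in WT and 31.4 CPM in Fgg microglia at 1 d, and stayed called at 7 d in both (15.2 and 13.5 CPM). At 7 d 1.93% (WT) and 0.63% (Fgg) of all genes were called higher. Il1b averaged 10.5, 81.2 and 40.3 CPM in those 1 d comparisons and 1910 and 867 CPM in WT and Fgg myeloid cells. None of the NF-kB genes, cytokines or other ligands was called between genotypes in microglia or myeloid cells, where 0.0378% to 0.453% of all genes were.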

How the data were processed

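The authors deposited expected counts per gene, quantified by salmon within nf-core/rnaseq (GRCm38) and scaled so that transcript length is divided out (scaled TPM). The submitters' processing notes also name R 4.2.0 and DESeq2 1.36.0. The counts were rounded here, and 45143 of 45706 identifiers matched GENCODE mouse annotation. Totals were 18896957 to 51875767 per library. edgeR 4.0.16 (R 4.3.3) was run with TMM factors, glmQLFit and glmQLFTest on all 21 libraries with a mean per group, for 23815 genes with at least 5 counts over all libraries, and p-values were adjusted over all of them. Standard errors were taken from the quasi-likelihood F and correlations used log2 CPM with a prior count of 2. Motifs and alignments used Python 3.11.15 and Biopython 1.88. The fit was tested on simulated data.

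The 8 ligands and the gene lists were chosen with earlier results of these data known. All 8 ligands were described in every comparison. From the receptor, ligand, NF-kB and cytokine lists, called or highly expressed genes were named. The genes most like a ligand were the 3 with the highest correlation among genes with a mean log2 CPM of at least 1. DESeq2 1.42.0, its size factors, 2 other filters, a replicate block, ribosomal RNA genes left out, the compared groups alone and leaving out each library were tried as alternatives. Replicate numbers come from the sample titles. Same-numbered libraries deviated together in every pair for Fgg and WT microglia at 1 d alone (correlations of 0.449, 0.216 and 0.137). The mean for other pairings was -0.131. Deviations from a group mean cancel out within the group, so that mean largely follows from the same-numbered values and is not separate evidence. No 2 replicates were near-identical.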

Additional observations from a re-analysis of the deposited data

Results flagged for a closer look

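Ccl5 drew attention because its genotype difference pointed in opposite directions in different cells and times. In microglia at 7 d all 3 Fgg libraries lay below all 3 WT libraries, with a log2 fold change of -0.54. In myeloid cells at 1 d all 3 Fgg libraries lay above all 3 WT libraries, with a log2 fold change of 1.23. This difference, which crosses both time and cell type, was not tested, and neither value was called.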

How the results depend on the processing

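Under 7 alternatives and the removal of each library in turn, 1412 of 1448 values of single ligands stayed as they were, called or not called. Of the others, 23 lost a call and 13 gained one, and 0 called values changed sign. The 1412 include many values that were not called in the main fit either. DESeq2's Wald test called 2 ligands between genotypes in microglia at 1 d (Ccl3 and Ccl9) and 2 in myeloid cells (Ccl3 and Ccl4), against 0 by edgeR. Leaving out a library moved the number called between 3 and 5 in Fgg microglia at 7 d over sham, between 0 and 1 for the genotype comparison in microglia at 1 d, and between 0 and 2 in myeloid cells. The replicate block changed no call among the ligands in the paired comparison (0 called in microglia at 1 d), and in the comparisons whose numbers do not pair it left the counts within 1.5 times. Over all genes the block called 66 in the myeloid genotype comparison against 108.

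Counts over all genes were less stable. DESeq2 called 820 against 481 genes in WT and 347 against 158 in Fgg microglia at 7 d over sham, 104 against 13, 80 against 9 and 841 against 108 in the genotype comparisons (microglia at 1 d, at 7 d, myeloid), and 33 against 0 and 259 against 11 for the differences of genotype effects by time and by cell type. With the compared groups alone the counts were 85 in Fgg microglia at 7 d over sham, 8, 19 and 7 in the genotype comparisons, 2211 against 3967 in Fgg myeloid cells over microglia, and 0 for the difference by cell type. The filterByExpr filter called 176 in the myeloid genotype comparison, and without the bar on the fold change 1343 against 844 genes were called in Fgg microglia at 7 d over 1 d. With DESeq2's size factors 71.7% of the calls in Fgg microglia at 1 d over sham were higher, against 82.7%, and the causes were not tested. With 3 libraries a group, the 95% intervals of single ligands were 0.98 to 4.11 log2 units wide, the widest for Ccl7.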
